A study of Mus musculus with 8 samples.

Results

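Granins and the enzymes that process prohormones were followed here in the aging mouse brain through 10 genes, Chga, Chgb, Scg2, Scg3, Scg5, Vgf, Pcsk1, Pcsk2, Pcsk1n and Cpe. The rule names the genes for their place in the dense-core vesicle and uses no measured value, although it was written with earlier results of these data known. All 10 were among the 22430 genes listed and the 16730 genes tested. Brain RNA came from 8 male C57Bl/6JRj mice bought from a commercial breeder, 4 of them young adults at an age of 6 months (6m) and the other 4 aged, at 24 months (24m). The mice carried no transgene or treatment in the sources used here, and each library was made from 1 mouse. The labels call the tissue whole brain and also a brain hemisphere, and the methods describe a homogenate of a whole hemisphere from which polyadenylated RNA was sequenced in directional paired-end libraries. The comparison asks how the mRNA of these genes differed between aged and young adult brains.

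Neurons that release peptides store them in dense-core vesicles, which bud from the trans-Golgi network and release their load when calcium enters the cell. Granins are acidic proteins packed in large amounts into these vesicles, where they help to aggregate and sort the cargo and are themselves cut into peptides. Prohormones are cleaved at pairs of basic residues by the convertases PC1/3 (Pcsk1) and PC2 (Pcsk2), and carboxypeptidase E (Cpe) then trims the basic residues left at the new end, while proSAAS (Pcsk1n) is a small secretory protein that can inhibit PC1/3 and 7B2 (Scg5) is the chaperone that PC2 needs to become active.

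Of the 10 genes, Pcsk1n and Chga were lower in the aged brain, and the other 8 did not pass both thresholds. A gene was called at an adjusted p of at most 0.05 in the quasi-likelihood test of edgeR with a log2 fold change of 0.58 or more in size. The difference was 2.08-fold for Pcsk1n and 1.75-fold for Chga. With 2 of 10 genes called lower, the share was near the background, since 18.3% of all tested genes were called lower, 25.3% higher and 43.6% in either direction. No member was called higher by edgeR, DESeq2 or limma-voom, with 1 (Pcsk1) at an unadjusted p under 0.05 in edgeR. The 24m libraries lay wholly outside the range of the 6m libraries for 3 of 10 members, against 55.2% of all tested genes. The median log2 fold change was -0.10 over the members and -0.0034 over all tested genes. In a bulk sample, fewer cells that express a gene and less of its mRNA per cell cannot be told apart.

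**Figure D1:**
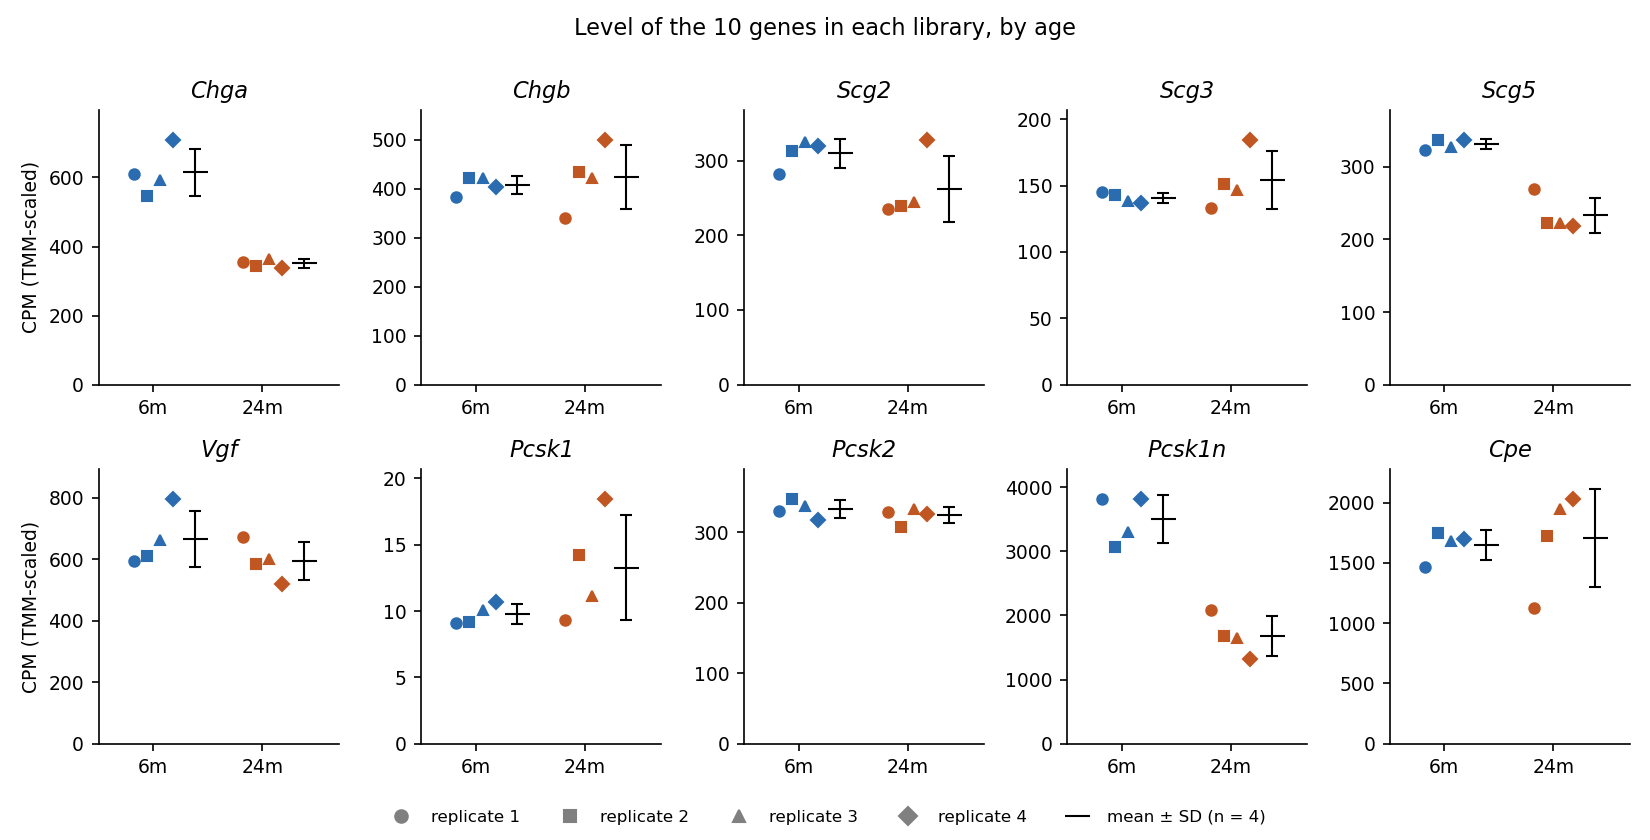
Level of each of the 10 genes as counts per 1e+06 scaled with TMM factors (CPM, y axis from 0) in the 4 libraries of each age (x axis), with the mean and SD beside them. Symbols mark the replicate number, which names a mouse and pairs nothing. The libraries of the ages are apart for Chga, Scg5 and Pcsk1n and overlap for the other 7 genes.

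The libraries held 63460940 to 103462414 counts, and the least abundant member, Pcsk1, had 595 to 1610 counts in a library. The members together took 0.723 to 0.758% of all counts in the 6m libraries and 0.557 to 0.656% in the 24m libraries, and their summed level was 7547 to 8543 CPM at 6m and 5561 to 5936 CPM at 24m. Pcsk1n alone had 43.9% of the summed level at 6m and 29.2% at 24m. One library stood apart. The 24m replicate 1, which was also the deepest, was the 24m library nearest to the 6m mean in 62.2% of all tested genes and in 82.9% of called genes. It was the nearest of the 4 for Scg5, Vgf, Pcsk1 and Pcsk1n only. Values without it stand beside Scg5, Pcsk1, Cpe, Chgb and Scg3 where those genes are described. For Chga the log2 fold change without it was -0.80, for Pcsk1n -1.17, for Pcsk2 -0.036, for Scg2 -0.19 (adjusted p = 0.155) and for Vgf -0.22 (adjusted p = 0.0753). The mitochondrially encoded genes took 5.26 to 6.52% of counts at 6m and 3.18 to 3.69% at 24m, and the part of this difference in the results below was not tested beyond taking those genes out of the table, after which the same 2 members were called.

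Among the secretory inhibitors and chaperones, Pcsk1n (ENSMUSG00000039278, chrX:7786043-7790649, plus strand of GRCm39, 3 exons) encodes proSAAS. Its level was 3817, 3070, 3297 and 3810 CPM in 6m replicates 1 to 4 and 2086, 1672, 1640 and 1321 CPM in 24m replicates 1 to 4. All aged libraries were below all young libraries, with the 24m replicate 1 nearest to them. The mean was 3499 ± 375 CPM at 6m and 1680 ± 314 CPM at 24m (SD, n = 4 each), a log2 fold change of -1.06 with an SE of 0.15 (adjusted p = 0.0003 by edgeR). Pcsk1n was called lower in all 23 alternative fits, with log2 values from -1.17 to -0.62 and adjusted p from 4.35e-11 to 0.00182. Eras, a gene on the opposite strand, overlaps it, and strand use in the counting was not stated, so reads of the 2 genes may not be separate.

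Scg5 (ENSMUSG00000023236, chr2:113606688-113660094, minus strand, 6 exons) encodes 7B2. The level was 323.7, 337.6, 328.2 and 337.6 CPM in the 6m libraries and 269.2, 222.1, 223.2 and 218.7 CPM in the 24m libraries. The ages did not overlap, and the young libraries were tight, with a coefficient of variation of 2.1%. The log2 fold change was -0.51 with an SE of 0.09 (adjusted p = 0.000875 by edgeR), which passed the test and missed the fold threshold. Without the 24m replicate 1 it was -0.57 (adjusted p = 8.79e-06). After removal of each library's trend over canonical transcript length the sign turned, with 0.11 (adjusted p = 0.235), and the range over all 23 alternatives was -0.92 to 0.11.

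Pcsk1 (ENSMUSG00000021587, chr13:75237284-75284898, plus strand, 14 exons), the gene of PC1/3, measured 9.07, 9.18, 10.1 and 10.7 CPM in the 6m libraries and 9.35, 14.2, 11.1 and 18.5 CPM in the 24m libraries. The 24m replicate 1 lay inside the young range and the other aged libraries above it, so the ages overlapped. The log2 fold change was 0.45 with an SE of 0.19 (adjusted p = 0.0688 by edgeR). Without the 24m replicate 1, Pcsk1 was called higher at 0.59 (adjusted p = 0.00522), and without the 24m replicate 4 it was at 0.24 (adjusted p = 0.193). With library totals in place of TMM factors it was called higher at 0.68 (adjusted p = 0.0242), and with canonical transcript length taken out its sign turned, at -0.19 (adjusted p = 0.27). The spread among aged mice was wide, with a coefficient of variation of 30.1% at 24m and 7.82% at 6m.

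Pcsk2 (ENSMUSG00000027419, chr2:143387993-143659507, plus strand, 12 exons), the gene of PC2, measured 329.9, 347.5, 336.7 and 316.9 CPM at 6m and 329.1, 307.7, 332.9 and 326.2 CPM at 24m. The libraries of the ages were interleaved, with a log2 fold change of -0.04 with an SE of 0.07 (adjusted p = 0.657 by edgeR). Pcsk2os1 and Pcsk2os2 are annotated on the opposite strand within this gene. With canonical transcript length taken out, Pcsk2 was called lower at -0.63 (adjusted p = 0.000826), and with library totals in place of TMM factors its sign turned, at 0.18 (adjusted p = 0.0568).

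Cpe (ENSMUSG00000037852, chr8:65045555-65146435, minus strand, 9 exons), the carboxypeptidase, measured 1464, 1748, 1686 and 1700 CPM at 6m and 1130, 1724, 1948 and 2033 CPM at 24m. The 24m replicate 1 was the lowest of all 8 libraries and the 24m replicates 3 and 4 were the highest. The log2 fold change was 0.05 with an SE of 0.17 (adjusted p = 0.808 by edgeR). Without the 24m replicate 1 it was 0.22 (adjusted p = 0.0475), under the fold threshold.

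Among the granins, Chga (ENSMUSG00000021194, chr12:102520484-102531300, plus strand, 8 exons) encodes chromogranin A, the precursor of peptides such as catestatin and vasostatin. Its level was 609.9, 547.3, 592.6 and 709.5 CPM in the 6m libraries and 355.3, 344.5, 364.9 and 338.6 CPM in the 24m libraries. The ages were well apart, and the aged libraries lay close together, with a coefficient of variation of 3.33% at 24m and 11.1% at 6m. The mean was 615 ± 68.4 CPM at 6m and 351 ± 11.7 CPM at 24m (SD, n = 4 each), a log2 fold change of -0.81 with an SE of 0.09 (adjusted p = 0.000128 by edgeR). Over the 23 alternatives the value ran from -0.97 to -0.47, with adjusted p from 2.72e-15 to 0.00105. In 2 of them it stayed short of the fold threshold, at -0.47 with DESeq2 on quantile-normalized counts and at -0.48 with canonical transcript length taken out.

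Chgb (ENSMUSG00000027350, chr2:132622464-132637904, plus strand, 5 exons) encodes chromogranin B, also known as secretogranin 1. It measured 382.6, 421.5, 421.6 and 404.4 CPM at 6m and 340.3, 435.2, 422.1 and 500.2 CPM at 24m. The aged libraries spread to both sides of the young range, with a log2 fold change of 0.06 with an SE of 0.11 (adjusted p = 0.673 by edgeR). It was 0.16 (adjusted p = 0.0857) without the 24m replicate 1 and -0.030 without the 24m replicate 4. Gm74864 overlaps it on the opposite strand.

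Scg2 (ENSMUSG00000050711, chr1:79412386-79417837, minus strand, 2 exons), the precursor of secretoneurin, measured 281.9, 313.1, 324.4 and 319.9 CPM at 6m and 235.5, 238.7, 244.3 and 328.1 CPM at 24m. The 24m replicates 1 to 3 were below all young libraries and the 24m replicate 4 was above them, which left a log2 fold change of -0.24 with an SE of 0.12 (adjusted p = 0.0959 by edgeR). Without the 24m replicate 4 it was -0.37 (adjusted p = 0.00427), under the fold threshold.

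Scg3 (ENSMUSG00000032181, chr9:75546929-75591396, minus strand, 12 exons), a granin that binds chromogranin A and the vesicle membrane, measured 144.9, 142.9, 138.8 and 136.9 CPM at 6m and 133.4, 151.6, 147 and 184.7 CPM at 24m. The ages overlapped through the 24m replicate 1, and the log2 fold change was 0.13 with an SE of 0.10 (adjusted p = 0.282 by edgeR). It was 0.20 (adjusted p = 0.0508) without the 24m replicate 1 and 0.032 (adjusted p = 0.744) without the 24m replicate 4. Gm37871 and Gm68716 lie on the opposite strand within its span.

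Vgf (ENSMUSG00000037428, chr5:137055246-137062205, plus strand, 2 exons), a growth-factor-inducible granin whose peptides act on energy balance and synapses, measured 595.4, 610.5, 664.2 and 796.8 CPM at 6m and 673.2, 583.1, 602.5 and 520.1 CPM at 24m. The ages overlapped, with a log2 fold change of -0.16 with an SE of 0.12 (adjusted p = 0.248 by edgeR), which was -0.068 without the 6m replicate 4. Its sign turned to 0.05 with library totals in place of TMM factors. Across the 6 granins, Scg5 counted among them, 1 (Chga) was called lower and 5 were not called, a share near the 18.3% of all tested genes. Their summed level, Scg5 included, was 2338 to 2705 CPM at 6m and 1975 to 2090 CPM at 24m.

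**Figure D2:**
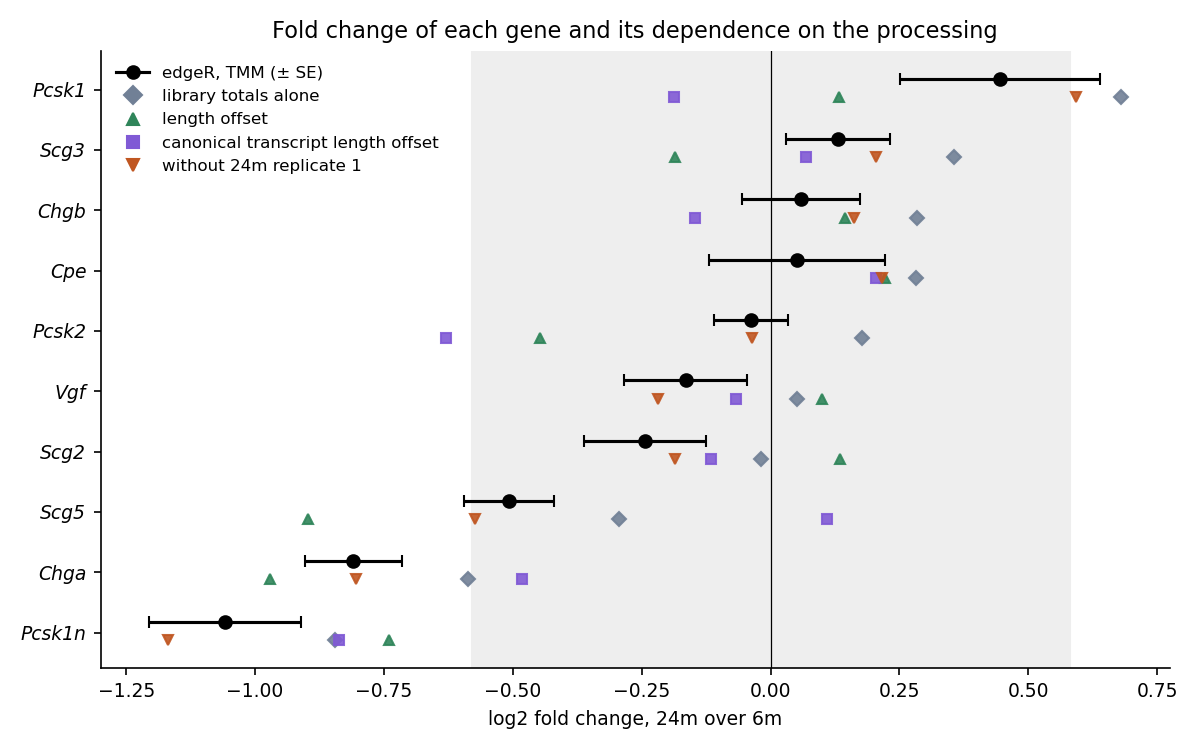
Log2 fold change of each gene, 24m over 6m (x axis), with its SE from edgeR (black), and the same value under 4 alternatives: library totals in place of TMM factors, removal of the trend over exonic length, removal of the trend over canonical transcript length, and without the 24m replicate 1. The grey band marks values under the fold threshold of 0.58 in size. All 5 values of Pcsk1n lie to the left of the band, the values of Scg5 run from -0.90 to 0.11, and those of Pcsk1 from -0.19 to 0.68.

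Several genes of regulated secretion carry in their promoters a cyclic AMP response element, the motif bound by transcription factors of the CREB family. The windows around such letters are shown as a description, and a link between them and the fold changes was not tested. RefSeq promoters of the assembly GRCm38.p6, 250 bases before to 50 bases after the annotated start, were found for 8 of 10 members, with no entry for Vgf and Cpe. The full motif TGACGTCA, which reads the same on both strands, was in 3 of these 8 promoters and in 1.79% of 32851 promoters of 300 bases. The core TGACG, searched on both strands and contained in the full motif, was in 7 of the 8 and in 20.8% of all promoters. Capitals mark the full motif in Chgb (chr2:132781559-132781588, plus strand, centred 68 bases before the start), Scg2 (chr1:79440076-79440105, minus strand, 64 bases before) and Pcsk1 (chr13:75089768-75089797, plus strand, 74 bases before), and the core alone in Chga (chr12:102554885-102554914, plus strand, 42 bases before).
Chgb: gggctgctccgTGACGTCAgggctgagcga
Scg2: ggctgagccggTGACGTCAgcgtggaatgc
Pcsk1: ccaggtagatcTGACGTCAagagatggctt
Chga: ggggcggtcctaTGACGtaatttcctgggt

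The 3 genes with the full motif had log2 fold changes of 0.06 for Chgb, -0.24 for Scg2 and 0.45 for Pcsk1. Chga, Scg3, Scg5 and Pcsk2 had the core alone, and Pcsk1n had neither in its window. A match of letters is a description of the window and says nothing of binding.

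Levels of different genes were compared as CPM per kilobase of the canonical transcript. At 6m, Pcsk1n was highest, at 1582 ± 170 per kilobase (SD, n = 4), followed by Cpe at 669.5, Chga at 315.1, Scg5 at 271.3, Vgf at 259.2, Scg2 at 123.2, Chgb at 111.8, Pcsk2 at 54.6, Scg3 at 45.9 and Pcsk1 at 1.62. Of these neighbours in order, the libraries of Scg5 and Vgf and of Scg2 and Chgb overlapped. At 24m the order became Pcsk1n at 759.8 ± 142, Cpe at 693.5, Vgf at 231.2, Scg5 at 190.8, Chga at 179.8, Chgb at 116.4, Scg2 at 104, Pcsk2 at 53.2, Scg3 at 50.2 and Pcsk1 at 2.20. Chga moved from rank 3 to rank 5. Neighbours whose libraries overlapped at 24m were Pcsk1n and Cpe, Vgf and Scg5, Scg5 and Chga, Chgb and Scg2, and Pcsk2 and Scg3. Pcsk1n and Cpe were apart at 6m, at 1389 to 1726 against 594.2 to 709.3 per kilobase, and overlapped at 24m, at 597.6 to 943.6 against 458.4 to 825.1. Against the levels of all tested genes at 6m, Pcsk1n stood at percentile 99.7, Scg3 at 88.8 and Pcsk1 at 40.2, with the other members between Scg3 and Pcsk1n.

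Ratios of counts between 2 members within a library do not depend on scaling factors. The ratio of Pcsk1n to Pcsk1, inhibitor to enzyme, was 420.9, 334.5, 327 and 357.2 in the 6m libraries and 223.1, 117.8, 147.7 and 71.6 in the 24m libraries. All aged libraries were lower, with a log2 difference of -1.47 (exact permutation p = 0.0286, two-sided, over 70 assignments, adjusted p = 0.0381 over 4 ratios). Here 0.0286 is the smallest p that 4 against 4 libraries can give. Without any one of the 6m libraries the difference was -1.52 to -1.39 and its exact permutation p was 0.0571. It was -0.85 with the exonic length offset and -0.64 with the canonical length offset.

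The ratio of Scg5 to Pcsk2, chaperone to enzyme, was 0.981, 0.972, 0.975 and 1.07 at 6m and 0.818, 0.722, 0.671 and 0.670 at 24m, a log2 difference of -0.47 with no overlap (exact permutation p = 0.0286, adjusted p = 0.0381). With the canonical length offset it turned to 0.75 (exact permutation p = 0.0286). The ratio of the chromogranins, Chga to Chgb, was 1.59, 1.30, 1.41 and 1.75 at 6m and 1.04, 0.792, 0.865 and 0.677 at 24m, a log2 difference of -0.85 with no overlap (exact permutation p = 0.0286, adjusted p = 0.0381). Counts of Chga exceeded those of Chgb in all 6m libraries and in the 24m replicate 1 alone among aged libraries. The ratio of the convertases, Pcsk1 to Pcsk2, overlapped between ages, with a log2 difference of 0.44 (exact permutation p = 0.143), which was 0.27 without the 24m replicate 4 and 0.60 without the 24m replicate 1.

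**Figure D3:**
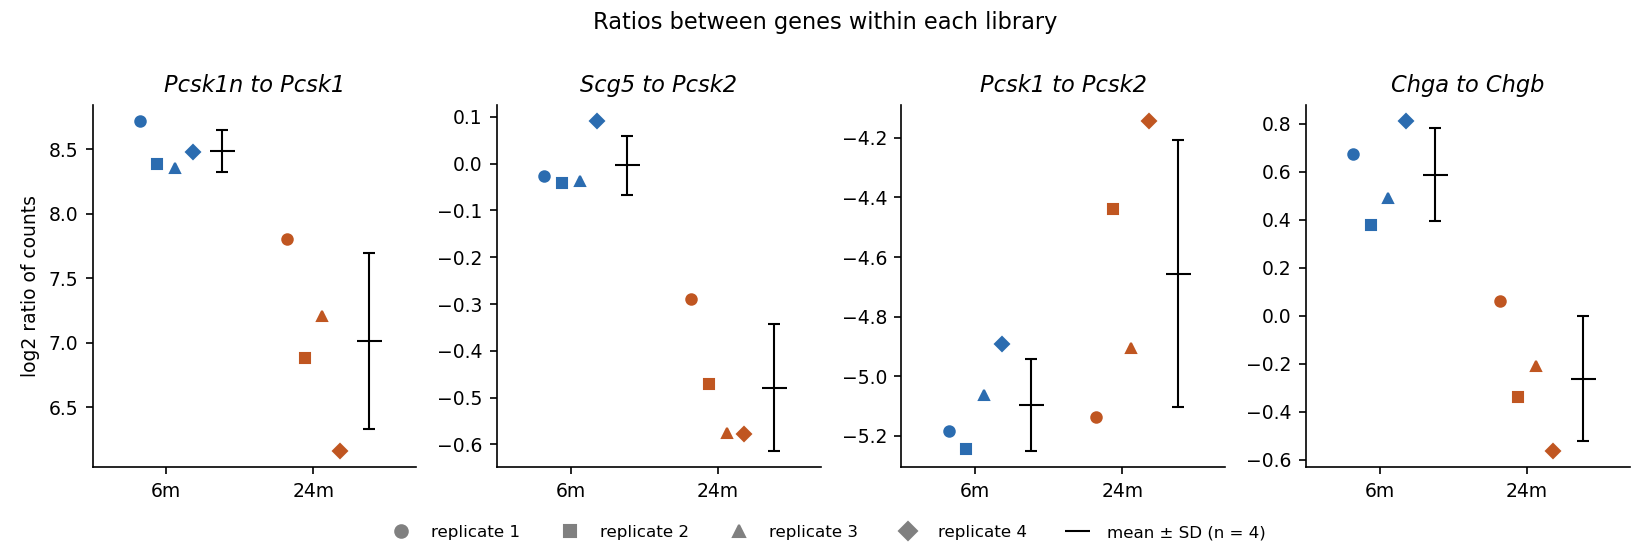
Log2 ratio of the counts of 2 genes within each library (y axis, not from 0) in the 4 libraries of each age (x axis), with mean and SD. The ages are apart for Pcsk1n to Pcsk1, Scg5 to Pcsk2 and Chga to Chgb, where aged libraries are lower, and overlap for Pcsk1 to Pcsk2.

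Transcript length moved with age over the whole table. With the tested genes split into 5 classes of equal size by canonical transcript length, the median log2 fold change was -0.62 in the shortest class, then -0.22, 0.11, 0.39 and 0.69 in the longest, and the shares of genes called lower were 49.4%, 18.8%, 10.4%, 6.81% and 5.85% in the same order. Scg5 (1223 nt) was in the shortest class. Chga (1951 nt), Pcsk1n (2211 nt), Cpe (2464 nt), Scg2 (2515 nt) and Vgf (2572 nt) were in the next, Scg3 (3070 nt) and Chgb (3645 nt) in the middle one, and Pcsk1 (6023 nt) and Pcsk2 (6094 nt) in the longest. Of the 5 genes in the second class, Pcsk1n and Chga lay farthest below its median of -0.22, and both Pcsk1 and Pcsk2 lay below the median of the longest class, 0.69. In each of the 3 ratios whose ages were apart, the gene above the line had the shorter transcript.

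With each library's trend over canonical length removed, Pcsk1n was still called, at -0.84 (adjusted p = 0.000126), while Chga was at -0.48 (adjusted p = 0.00103), under the fold threshold. The ratio of Pcsk1n to Pcsk1 was then -0.64 and that of Chga to Chgb -0.33, both with the ages apart. The ratio of Scg5 to Pcsk2 had turned sign, as given above. With the union of all exons as the length, which for Scg5 is 10713 nt, it kept its sign at -0.46. The sign of this ratio thus depended on which length was used, and the part of transcript length in these differences cannot be told apart from that of age in this design.

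**Figure D4:**
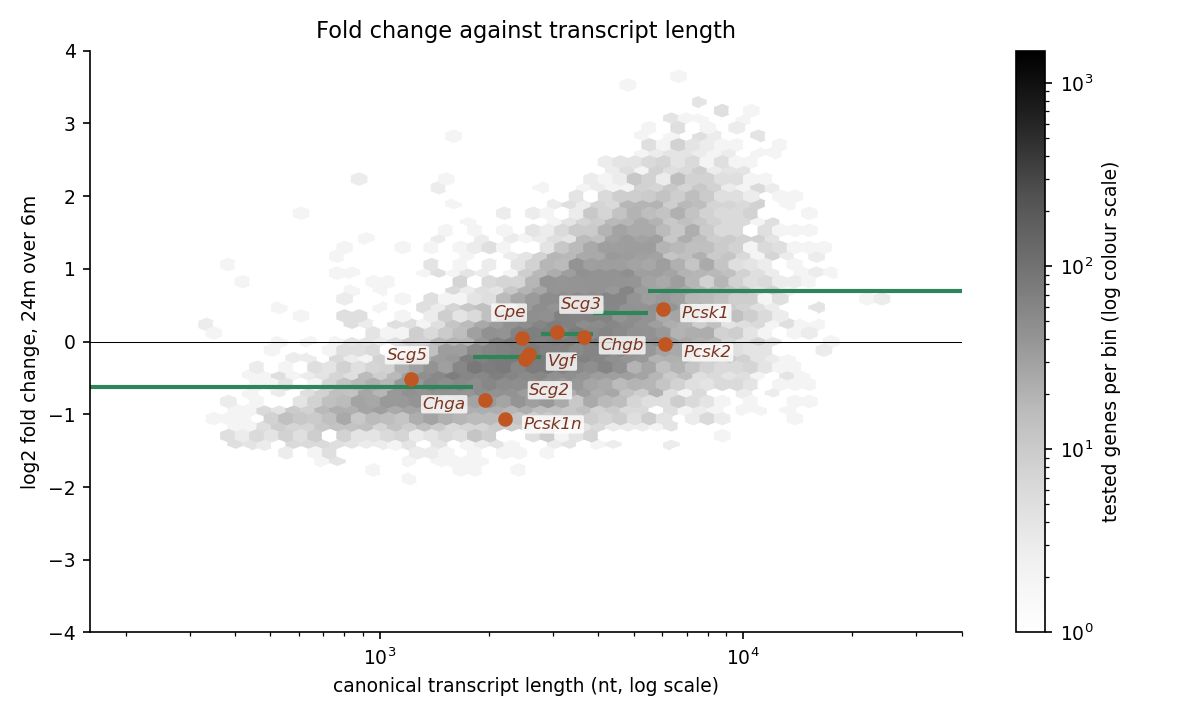
Log2 fold change, 24m over 6m (y axis), against canonical transcript length in nt (log x axis) for all tested genes with a length, as grey bins shaded by the number of genes on a log scale. Green lines are the medians of the 5 length classes, from -0.62 to 0.69, and orange points the 10 named genes, of which Pcsk1n and Chga lie farthest below the line among the 5 in the second class.

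The other genes of the pathway were read from the same edgeR fit. Of 10 other maturation enzymes, 3 were called higher and none lower, and none was called lower by DESeq2 or limma-voom. At the adjusted p of edgeR alone, 4 were higher and 2 lower. The 2 lower, Ctsl at -0.28 (adjusted p = 0.00974) and Rnpep at -0.33 (adjusted p = 0.0115), missed only the fold threshold. Those called were Cpd, a carboxypeptidase of the trans-Golgi network related to Cpe, at 2.99 ± 0.35 (SE, adjusted p = 0.000128), and the convertases Pcsk6 at 1.11 ± 0.08 (adjusted p = 2.3e-05) and Furin at 0.78 ± 0.09 (adjusted p = 0.000156). The 3 of 10 called higher stand beside 25.3% of all tested genes, and the median of this list was 0.18. With the exonic length offset 2 of the 10 were called higher and 2 lower, beside 21.3% of all tested genes higher and 17.2% lower in that fit, and with the canonical one the counts were the same, beside 18.1% and 14.5%.

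Of 19 genes of the machinery that makes, moves and releases dense-core vesicles, 10 were called higher, or 9 by limma-voom, and none lower. By the adjusted p of edgeR alone, 13 were higher and 2 lower. The 2 lower, Rab3a at -0.46 (adjusted p = 0.00546) and Eipr1 at -0.28 (adjusted p = 0.0461), missed only the fold threshold. Over all tested genes 25.3% were called higher. The median of the list was 0.64. The 2 that rose most were Ccdc186, needed for the maturation of these vesicles, at 1.88 ± 0.30 (adjusted p = 0.00062), and Syt4, a synaptotagmin of the vesicle membrane, at 1.74 ± 0.26 (adjusted p = 0.000446). The 2 smallest called changes were Rab27b, a small GTPase of secretory vesicles, at 0.71 ± 0.27 (adjusted p = 0.0431), and Cadps2, a priming factor, at 0.64 ± 0.12 (adjusted p = 0.00124).

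Of 24 neuropeptide precursors, the substrates of the convertases, 18 were called lower and none higher by edgeR, DESeq2 and limma-voom. With the adjusted p of edgeR alone, 20 were lower and 1 higher, Pdyn at 0.23 (adjusted p = 0.0498), which missed only the fold threshold. Over all tested genes 18.3% were called lower. The list is not independent of the study. On these samples the study named Cartpt and also reported lower expression of a gene set for neuropeptide hormone activity. The median of the precursors was -0.97. The lowest were Cartpt, an anorectic peptide precursor, at -1.89 ± 0.19 (adjusted p = 6.49e-05), and Nmb, the neuromedin B precursor, at -1.71 ± 0.27 (adjusted p = 0.000598). Those called nearest to the threshold were Trh, the thyrotropin-releasing hormone precursor, at -0.67 ± 0.24 (adjusted p = 0.0329), and Penk, the enkephalin precursor, at -0.64 ± 0.11 (adjusted p = 0.000724). These precursors are short, with a median canonical transcript of 1244 nt against 3293 nt over all tested genes, and after removal of the trend over canonical length 8 of 24 were called lower and 1 higher, beside 14.5% of all tested genes called lower and 18.1% higher in that fit. Without the 24m replicate 1, 18 precursors were called lower, 12 genes of the vesicle machinery higher and 3 maturation enzymes higher, beside 21.9% of all tested genes lower and 27.8% higher. With the trend over canonical length removed, 6 of the 19 genes of the vesicle machinery were called higher, beside 18.1% of all tested genes. Their median canonical transcript was 3965 nt.

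**Figure D5:**
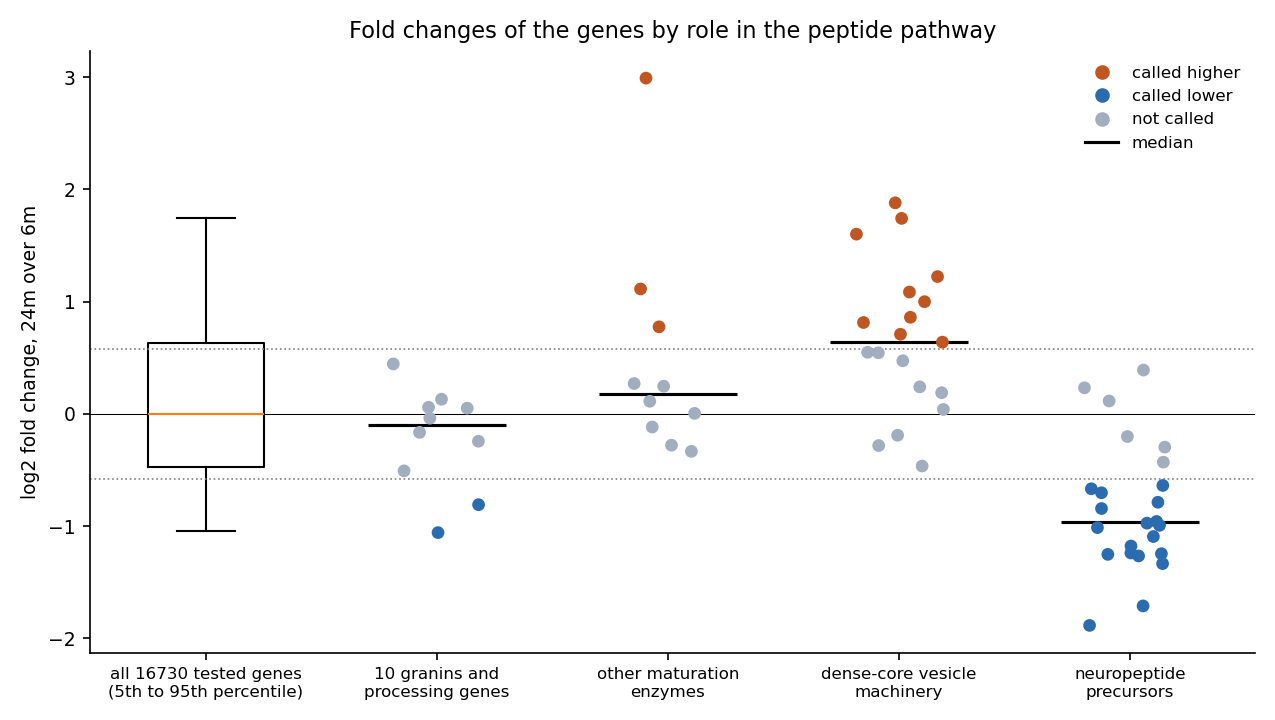
Log2 fold change, 24m over 6m (y axis), of the tested genes of each role in the pathway, coloured by call, with the median of each list as a black line and the fold threshold dotted. The box at the left gives the quartiles and, as whiskers, the range from percentile 5 to percentile 95 of all 16730 tested genes. The members have a median of -0.10, the other maturation enzymes 0.18, the vesicle machinery 0.64 and the neuropeptide precursors -0.97.

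Cell type and region markers were read beside these values, and their part in the results was not tested. Among all tested genes, 25.3% were called higher and 18.3% lower. Neuron markers were high in all libraries, and the summed level of 10 of them was 4527 to 4780 CPM at 6m and 4974 to 5317 CPM at 24m, with Syt1 called higher and Tubb3 and Elavl4 lower. The pituitary, rich in granins and convertases, adjoins the brain. Of its 7 markers, 3 were tested, Gh and Tshb were called lower, Fshb was 0 in all 8 libraries, Cga in 4, Prl in 3, Pou1f1 in 3 and Gh in 2, and the sum was 1.68 to 5.21 CPM at 6m and 0.459 to 1.43 CPM at 24m. Of 5 markers of the hypothalamus, a site of many peptide neurons, 4 were tested and none was called by edgeR, with sums of 4.3 to 6.66 CPM at 6m and 4.59 to 7.94 CPM at 24m and Sim1 at 0 in 3 libraries. The 5 choroid plexus markers summed to 1772 to 3194 CPM at 6m and 818 to 2248 CPM at 24m, with Kl and Clic6 called higher and none lower. Ttr, not called, made up most of this sum, with means of 2452 CPM at 6m and 1416 CPM at 24m.

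Glial and vascular markers were called in both directions, beside 25.3% of all tested genes called higher and 18.3% lower. Astrocyte markers, of interest because astrocytes also express Cpe and Scg3, were called higher in 5 of 8 genes and lower in 1 (S100b). Their summed levels were 2892 to 3826 CPM at 6m and 2847 to 3844 CPM at 24m. Aldoc, not called, made up most of this sum, with means of 2507 CPM at 6m and 2057 CPM at 24m. The mean of Gfap went from 190 CPM at 6m to 520 CPM at 24m, and that of S100b from 301 to 123 CPM. Of 7 microglia markers 2 were called higher, with sums of 418.8 to 450.4 and 428.2 to 577.8 CPM. Of 5 endothelial markers 1 was called higher and 2 lower, with sums of 59.51 to 82.06 and 44.03 to 59.52 CPM.

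For the members at both ends of the order of fold changes, the genes with the nearest profile over the 8 libraries were sought among 8990 others of at least 10 CPM, by the root mean square difference of centred log2 CPM. For Pcsk1 they were Hspa5, a chaperone of the endoplasmic reticulum, at 0.109, Uggt1, a glucosyltransferase of the same compartment, at 0.129, and Rab3c, a GTPase of secretory vesicles, at 0.131, where the median over all candidates was 0.455. For Pcsk1n they were Ccdc12 at 0.0387, Mcee, a mitochondrial epimerase, at 0.0399, and Mrps26, a mitochondrial ribosomal protein, at 0.0406, with a median of 0.544. Those near Pcsk1 had log2 fold changes of 0.41, 0.40 and 0.30, and those near Pcsk1n -1.03, -1.02 and -1.04. Small distances and similar fold changes follow from this choice over the same libraries and are no separate result.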

How the data were processed

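The deposited values are raw counts of reads for each Ensembl gene in each mouse, made by the authors with Trim Galore 0.4.11 and HISAT2 2.1.0, per the submitters' processing notes, on GRCm39, and with featureCounts, whose version, strand and multimapping settings are not given in the sources used here. Of 22430 identifiers, 22281 matched the GENCODE annotation of GRCm39 used here for names, positions and lengths, and 149 did not. Every line named a gene. Library totals were 63460940 to 103462414 counts. Replicate libraries differed by far more than sampling noise (8.17 to 424 chi-square per degree of freedom over pairs of one age), so each mouse was 1 replicate.

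A gene was tested if 4 or more of the 8 libraries had over 5 counts. The fit used edgeR 4.0.16 in R 4.3.3 (quasi-likelihood, TMM factors) with a single term for age, and p-values were adjusted by Benjamini-Hochberg over all 16730 genes. Thresholds and the low-count cutoff follow the study, which normalized by quantiles and tested with DESeq2. CPM are counts per 1e+06 with TMM factors, and log2 values used a prior count of 2. Ratios of counts were compared by exact permutation. The members and lists were chosen with earlier results of these data known. All members are named, and of each other list the 2 called genes of largest and the 2 of smallest fold change, marker genes where a list moves with age, and the 3 genes nearest in profile to the members of largest and smallest fold change. Alternatives were other scaling, DESeq2 1.42.0, limma-voom (limma 3.58.1), DESeq2 on quantile-normalized counts, other filters and thresholds, thinning to the smallest library, each library left out, the replicate number as a block, and offsets for exonic length or GC content (lowess span 0.3). Offsets for canonical transcript length, offsets in the ratios and the alternatives for the other lists were added after the data were seen. The fit was tested on simulated data. Promoters came from a RefSeq table of another assembly, GRCm38.p6, and no position was converted between builds. Results of 2 of the marker lists are not reported here.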

Additional observations from a re-analysis of the deposited data

Results flagged for a closer look

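Among 28 groups of 4 libraries screened over the members and their ratios, 3 held a library far from the other 3 of its age by Dixon's test, where chance gives about 1 in 20. The level of Scg2 in the 24m replicate 4 was 328.1 CPM, above the other aged libraries at 235.5 to 244.3 CPM. Scg5 in the 24m replicate 1 was 269.2 CPM, above the other aged libraries at 218.7 to 223.2 CPM. The ratio of Scg5 to Pcsk2 in the 6m replicate 4 was 1.065, above the other young libraries at 0.972 to 0.981.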

How the results depend on the processing

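Pcsk1n was called lower in all 23 alternatives and Chga had an adjusted p under 0.05 in all 23. The cause of the changes that follow was not tested unless stated. No member was called higher except Pcsk1, 1 gene with library totals (0.68, adjusted p = 0.0242) and without the 24m replicate 1, so that the count over libraries left out ran from 0 to 1. The count called lower fell to 1 with DESeq2 on quantile-normalized counts, where Chga was at -0.47, and with a log2 threshold of 1 by construction. Library totals in place of TMM factors moved the median of all genes to 0.214 and the share of called genes that were higher from 58.1% to 75.7%. DESeq2 on quantile-normalized counts moved them to -0.1 and 47.9%. Signs turned only for members not called: Vgf at 0.052 and Pcsk2 at 0.18 with library totals, Vgf at 0.198 and Pcsk2 at 0.187 on quantile-normalized counts, Scg2 at 0.135, Scg3 at -0.185 and Vgf at 0.0996 with the exonic length offset, and Chgb at -0.0127, Scg3 at -0.128, Vgf at 0.147 and Cpe at -0.013 with the GC offset. With the canonical length offset Chgb was at -0.147, Scg5 at 0.109, Pcsk1 at -0.188 and the ratio of Scg5 to Pcsk2 at 0.753. Without 1 library, Chgb ran from -0.0299 to 0.162, below 0 without the 24m replicate 4, and Cpe from -0.0435 to 0.216, below 0 without the 6m replicate 1 (-0.0022) and the 24m replicates 3 (-0.0182) and 4. Scg5 passed the fold threshold at -0.897 with the length offset and -0.683 with the GC offset. Without 1 library the ratio of Pcsk1n to Pcsk1 ran from -1.735 to -1.188, and without any one 6m library its exact permutation p was 0.0571. Under the length offset, the offset with the block, and the canonical offset, 2 other maturation enzymes were called lower in each, and 7, 8 and 8 neuropeptide precursors. The canonical offset also called 1 precursor higher and 6 machinery genes higher. The replicate numbers did not pair the mice (correlations of 0.271, 0.143, 0.0778 and -0.348 between same-numbered libraries), and with the number as a block 0 members were called higher and 2 lower. With the block and the length offset, 3 were lower (Scg5 at -0.921 added), Scg2 was at 0.107, Scg3 at -0.187 and Vgf at 0.107. Thinning to the smallest library left 2 members called.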
